A study of Sus scrofa with 6 samples.

Results

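The genes described here are 10 members of the bone morphogenetic protein (BMP) pathway, chosen by symbol as 3 ligands (BMP2, BMP4 and BMP6), 2 receptors (BMPR1A and BMPR2), the secreted antagonist GREM1 and the targets ID1, ID2, ID3 and ID4. Each symbol was found in 1 row of the gene table, so 10 of its 22164 genes were members. The cells were porcine preadipocytes, precursors of fat cells, cultured from subcutaneous adipose tissue of 5-day-old pigs. The source labels run from Junmu No. 1 white pigs to Junmu No. 6 white pigs over the 6 samples. Whether the number belongs to the breed name or to an animal, and whether each culture came from its own animal, is not stated there. Of the 6 cultures, 3 received the human recombinant cytokine TGF-β1 at 10 ng/mL. The other 3 were negative controls (NC) kept with citric acid at 10 mM, and whether the treated cultures also received citric acid is not stated. All were harvested after 48 h.

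BMPs are secreted ligands of the TGF-β superfamily. A BMP dimer brings together type I receptors such as BMPR1A and the type II receptor BMPR2, and the active type I receptor phosphorylates SMAD1, SMAD5 and SMAD9, which enter the nucleus with SMAD4. TGF-β1 acts chiefly, though not only, through TGFBR1 and TGFBR2 on SMAD2 and SMAD3. The ID genes are among the best known direct targets of the BMP Smads. ID proteins have a helix-loop-helix but no DNA-binding region, so they hold E proteins such as TCF3 away from DNA. In mouse cells, BMP4 and BMP2 are known to bring mesenchymal precursors into the adipocyte lineage.

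RNA levels are given as FPKM, the fragments of a gene counted relative to gene length and to all mapped fragments, as the authors calculated them for each library. FPKM summed over all genes to between 418531 and 448468 in the NC libraries and between 392976 and 404489 in the TGF-β1 libraries. Every treated library thus had a smaller total than every control library. The tables hold no read counts. Low FPKM values gave a relative depth, with NC replicate 1 set to 1. It was 0.881 and 0.778 in NC replicates 2 and 3 and 0.740 to 0.842 with TGF-β1. Each estimate rests on only 22 to 27 genes that shared the most frequent ratio. The paper, by contrast, reports more raw reads for the TGF-β1 group than for the controls, so these depths are uncertain. Genes that exceeded an FPKM of 0.1 in 3 or more of the 6 libraries were tested with limma on log2(FPKM + 0.1), so fold changes are on that scale and understate changes at low levels. A gene passed at a Benjamini-Hochberg adjusted p under 0.1, and 17 of 17708 genes (0.096%) did so, 9 higher and 8 lower with TGF-β1. After median-ratio scaling of the libraries 12 passed, 8 of them higher. Of 14 stromal markers 13 were found and none was at 0. PDGFRB had 82.5 to 91.4 and THY1 152 to 205 FPKM, while CD34 (1.25 to 3.27), DPP4 (1.28 to 2.51) and NT5E (2.17 to 3.97) were low. Of the 7 endothelial markers found, VWF was at most 0.0611, TEK at most 0.281, KDR at most 0.501, and TIE1 was listed at 0 in all libraries but NC replicate 3, which had 0.484. PECAM1 (4.22 to 12.9), ERG (3.64 to 6.82) and CLDN5 (2.90 to 4.54) were present in each library. The 10 macrophage markers found summed to 137 to 611 FPKM in NC and to 69.2 to 400.3 with TGF-β1, with none at 0, and 6 epithelial markers summed to 0.0378 to 0.250 in NC and 3.58 to 5.00 with TGF-β1. DES, the only one of 5 muscle markers found, had 269 to 425 in NC and 432 to 583 with TGF-β1. The stromal collagens COL1A1 (250.02 to 271 against 341 to 494), COL1A2 and COL3A1 were likewise above the controls in every treated library. CD34, from the same stromal list, was below the controls in every treated library (1.84 to 3.27 against 1.25 to 1.75). The groups of the other stromal markers found overlapped. Of all these markers only the epithelial KRT5 and KRT8 passed (limma adjusted p = 0.00029 and 0.073), so DES, the collagens and CD34 did not. The part of the epithelial, muscle and stromal genes in the results below was not tested.

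None of the 9 members that could be tested passed. At an unadjusted p under 0.05, 1 member was found (BMP4) against 9.98% of all genes tested. The NC and TGF-β1 values did not overlap for 2 of the 9, BMP4 and ID1, both lower with TGF-β1, against 18.1% of all genes in either direction and 14.3% in the lower direction. The median log2 fold change of the 9 was -0.14, beside -0.10 for all genes tested. Scaling the libraries to the same total moved the median of all genes up by 0.12 to 0.02. Whether fewer cells that express a gene or less RNA per cell lies behind a lower value cannot be told apart in these bulk samples.

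**Figure D1:**
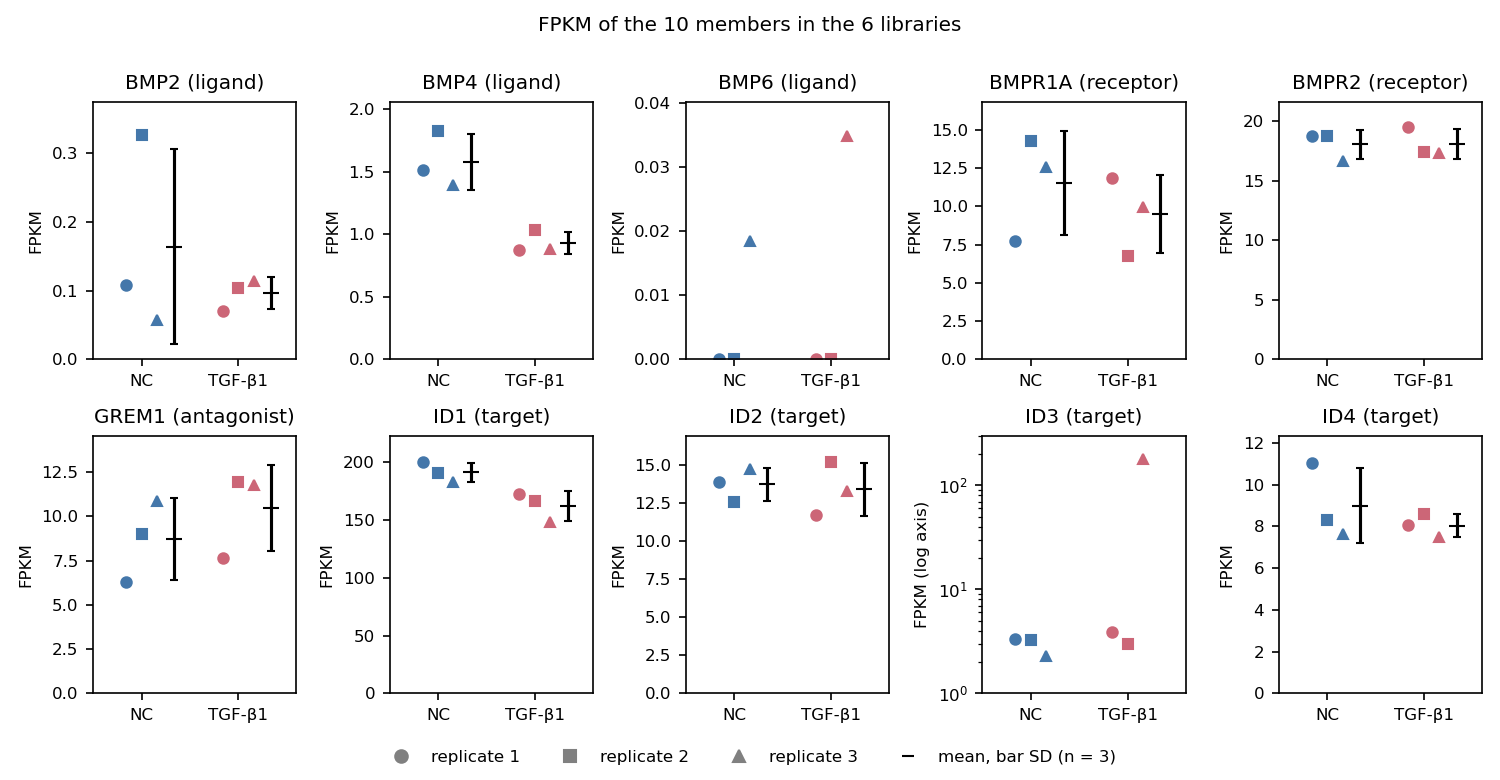
FPKM of each member (vertical axis, from 0 except for ID3, which has a log axis) in the NC and TGF-β1 libraries. Symbols mark the replicate, and the black mark and bar give the mean and SD of 3 libraries, left out for BMP6 and ID3. BMP4 and ID1 have all TGF-β1 points below all NC points, and 1 ID3 point stands at 178.

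Levels spanned a wide range, and since FPKM is per length the members can be ordered. ID1 stood first in both groups, with a median of 190 FPKM in NC and 166 with TGF-β1, and its mean over the 6 libraries exceeded that of 98.3% of the genes tested. BMPR2 came second at medians of 18.7 and 17.4. ID2, BMPR1A, GREM1 and ID4 followed between 6.27 and 15.2 FPKM, and neighbours among these overlapped in each group. ID3 was seventh by its median (3.24 in NC and 3.92 with TGF-β1). BMP4 was eighth, BMP2 ninth near 0.1, and BMP6 last. By median level, each receptor and target thus stood above the 3 ligands.

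BMP4 (gene1776), which signals through BMPR1A and BMPR2, had an FPKM of 1.51, 1.82 and 1.39 in NC replicates 1, 2 and 3. With TGF-β1 its values were 0.875, 1.03 and 0.880. Every treated library lay below every control library. The means were 1.58 ± 0.223 in NC and 0.929 ± 0.0887 under TGF-β1 (SD, n = 3 per group), and the log2 fold change was -0.70 (SE 0.14, 95% interval -1.04 to -0.36). The unadjusted p was 0.0029 and the adjusted p was 0.338 by limma, so BMP4 did not pass over all genes. Its groups also did not overlap after median-ratio scaling or scaling to the same total, where the log2 fold changes were -0.61 and -0.58.

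BMP2 (gene29044), the ligand most similar to BMP4, was close to the limit of detection. Its FPKM was 0.108, 0.326 and 0.0578 in the NC libraries and 0.0702, 0.104 and 0.114 in the TGF-β1 libraries. NC replicate 2 alone stood apart, and the other 5 libraries overlapped. The log2 fold change was -0.30 (SE 0.38, limma adjusted p = 0.799), and without NC replicate 2 it was 0.11. BMP6 (gene14197), a ligand known for the control of iron uptake through hepcidin, was listed at 0 in 4 libraries and at 0.0184 and 0.0349 in replicate 3 of NC and of TGF-β1. It did not reach the level needed for testing. A listed 0 can be a failed estimate in these tables: EEF1D, a translation elongation subunit that cells in general need (named after its values were seen), was listed at 0 in 5 libraries and at 146 in TGF-β1 replicate 3.

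The 2 receptors differed in how steady they were. BMPR2 (gene27682) had 18.7, 18.7 and 16.7 FPKM in NC and 19.5, 17.4 and 17.3 with TGF-β1. Its groups overlapped as deposited, and its highest library was 1.17 times its lowest. After scaling to the same total, but not after median-ratio scaling, all treated libraries lay above the controls, at 18.2 to 20.2 against 16.6 to 17.7 FPKM. The log2 fold change was 0.0036 (SE 0.10, 95% interval -0.26 to 0.27), and 6.28% of the genes tested had a lower SD of log2 values over the 6 libraries. BMPR1A (gene26108) had 7.73, 14.3 and 12.6 FPKM in NC and 11.8, 6.75 and 9.97 with TGF-β1. One library of each group was low, NC replicate 1 and TGF-β1 replicate 2, and the groups overlapped widely. The interval of its log2 fold change, -1.06 to 0.53, was wider than that of BMPR2 (estimate -0.26, limma adjusted p = 0.787). Without NC replicate 1 the estimate was -0.53, and without TGF-β1 replicate 2 it was -0.038.

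GREM1 (gene1385), which binds BMP2 and BMP4 outside the cell and keeps them from their receptors, had an FPKM of 6.27, 9.01 and 10.8 in NC. The TGF-β1 libraries had 7.66, 11.9 and 11.8. Replicate 1 was the lowest library of each group, and the groups overlapped. The log2 fold change was 0.27 (SE 0.28, 95% interval -0.43 to 0.96, limma adjusted p = 0.756). It was 0.052 without NC replicate 1 and 0.48 without TGF-β1 replicate 1. With the replicate number as a block the estimate was also 0.27, with a smaller SE of 0.10. GREM1 did not pass there either (limma adjusted p = 0.410). PDGFRA, a receptor of stromal progenitors, was likewise lowest in replicate 1 of each group, at 67.3 in NC and 70.4 with TGF-β1 against 135 to 189 in the other libraries. The macrophage sum was also lowest there, at 137 and 69.2 against 266 to 611. The part of either in the GREM1 values was not tested.

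The antagonist and the ligand can be set against each other within a library. The ratio of GREM1 to BMP4 FPKM, chosen after the values were seen, was 4.15, 4.94 and 7.79 in NC and 8.75, 11.6 and 13.4 with TGF-β1. All treated libraries lay above all control libraries, with means of 5.63 ± 1.91 and 11.2 ± 2.34 (SD, n = 3 per group). A ratio within a library does not depend on how libraries are scaled. In each group this ratio rose from replicate 1 to replicate 3, as the macrophage sum did. The part of that sum in the ratio was not tested. The ratio is a description only, because it was formed from members whose values were known, and BMP4 alone already separates the groups.

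**Figure D2:**
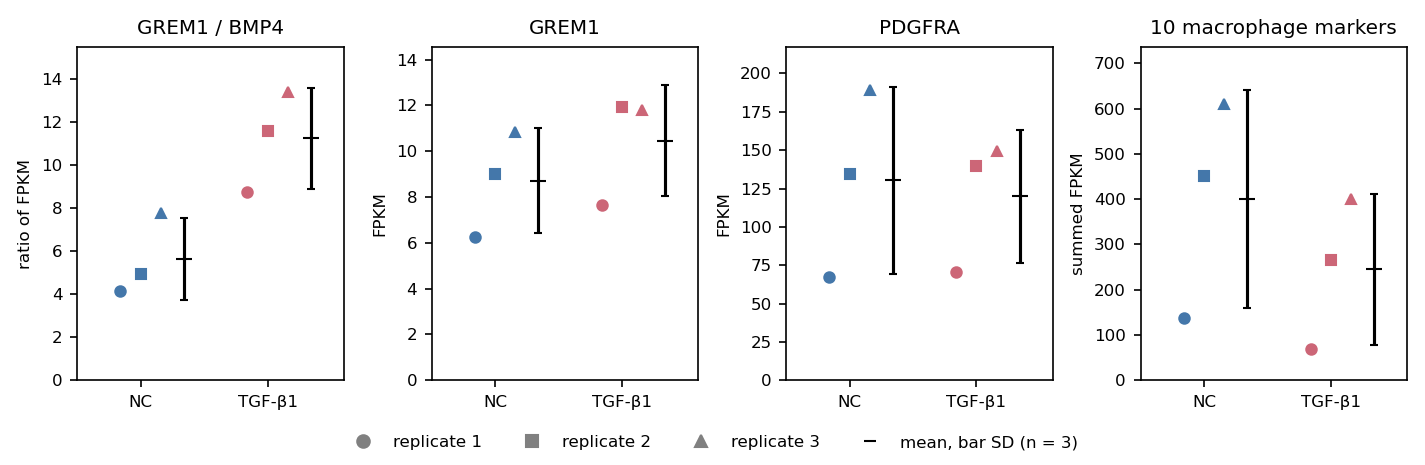
The ratio of GREM1 to BMP4 FPKM, the FPKM of GREM1 and of PDGFRA, and the summed FPKM of 10 macrophage markers in the NC and TGF-β1 libraries, with all axes from 0, symbols for the replicate and a mean with its SD (n = 3). The ratio is at most 7.79 in NC and at least 8.75 with TGF-β1. In every panel, that of the ratio included, replicate 1 is the lowest of each group.

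Among the targets, ID1 (gene29304) had 199.6, 190.1 and 182.8 FPKM in NC. With TGF-β1 it had 172.4, 165.9 and 147.7. The groups did not overlap, but the lowest control and the highest treated library were close. The means were 191 ± 8.40 and 162.0 ± 12.8 (SD, n = 3 per group), a ratio of 0.849. The log2 fold change of -0.24 (SE 0.10, 95% interval -0.50 to 0.02, limma adjusted p = 0.522) was beyond the median of all genes, -0.10. It was -0.14 after median-ratio scaling and -0.11 after scaling to the same total. The groups of ID1 did not overlap under either scaling, where the gap narrowed to 178.05 against 177.1 and to 179 against 178.2 FPKM.

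ID2 (gene8001), which is also known as a target of other pathways, had 13.8, 12.6 and 14.7 FPKM in NC and 11.7, 15.2 and 13.2 with TGF-β1. The treated libraries spread to both sides of the control libraries. The log2 fold change was -0.04 (95% interval -0.38 to 0.30, limma adjusted p = 0.927), and it was above 0 under the 3 scalings tried. ID4 (gene14300) had 11.03, 8.32 and 7.62 FPKM in NC and 8.07, 8.57 and 7.48 with TGF-β1. Only NC replicate 1 stood above the rest, and the log2 fold change was -0.14 (SE 0.17, limma adjusted p = 0.781), or 0.012 without that library.

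ID3 (gene35067), which BMPs often induce together with ID1, had 3.34, 3.24 and 2.31 FPKM in NC and 3.92 and 2.98 in TGF-β1 replicates 1 and 2. In TGF-β1 replicate 3 it had 178. The 5 other libraries lay within a narrow range (3.16 ± 0.586, SD, n = 5), and the single high value was 45.4 times the next highest. The groups overlapped as deposited and after median-ratio scaling. After scaling to the same total they did not, by a very small gap: TGF-β1 replicate 2 had 3.1160 and NC replicate 1 had 3.1156 FPKM. The log2 fold change was 2.11 with an SE of 1.63 and a 95% interval of -1.97 to 6.18 (limma adjusted p = 0.685), and without TGF-β1 replicate 3 it was 0.22 (limma adjusted p = 0.788). Of the 12706 genes tested with a mean of at least 1 FPKM, 5 had 1 library at 10 or more times the second highest plus 0.1, and ID3 ranked first among them. These 5 genes had their high value in TGF-β1 replicate 2 (2 genes), TGF-β1 replicate 1, TGF-β1 replicate 3 and NC replicate 2 (1 gene each).

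EEF1D, listed at 0 elsewhere, also had its single high value in TGF-β1 replicate 3, and it is not among these 5 because it did not pass the filter on low values. The other ID genes did not share the height of ID3 in that library. ID1, ID2 and ID4 had 147.7, 13.2 and 7.48 FPKM there, so that ID3 made up 51.4% of the summed ID FPKM in that library and 1.11% to 2.00% in the others. Genes near ID3 were taken from the RefSeq order of assembly Sscrofa11.1, while the reads were aligned to Sscrofa10.2. Of the directly adjacent genes, E2F2 was not found and LOC100620900 did not exceed 0.0151 FPKM, so neither could be compared. ELOA, 3 places away, was not found. The other genes 2 or 3 places away had no such height in TGF-β1 replicate 3. RPL11, a ribosomal protein gene, had 1230 FPKM against 1242 in each of the other TGF-β1 libraries, and TCEA3, an elongation factor gene, had 9.17 against 9.85 and 10.5. ASAP3, a GTPase-activating protein gene, had 12.1 against 11.2 and 17.4. Which of the levels, about 3 or 178 FPKM, is nearer to the amount of ID3 RNA in these cells cannot be read from the tables. By the root mean square difference of centred log2 values over the 6 libraries, the genes with the profile most like ID3 were S100A12, a calcium-binding protein of myeloid cells (1.46), RFK, riboflavin kinase (1.48), and ZNF207, a zinc finger gene (1.56). They were a poor match, with 5.43, 11.6 and 41.5 FPKM in TGF-β1 replicate 3 and at most 1.98, 4.21 and 17.0 elsewhere.

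**Figure D3:**
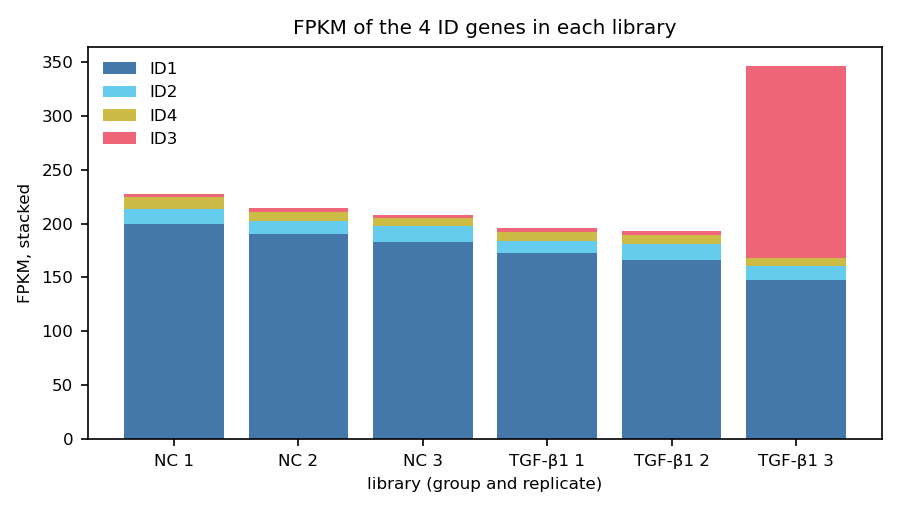
FPKM of ID1, ID2, ID4 and ID3, stacked from 0 for each of the 6 libraries. ID1 is the largest segment in each library but TGF-β1 replicate 3, where it is 42.6% of the bar and the ID3 segment adds 178 FPKM to a sum of 168 for the other ID genes.

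Summed without ID3, the ID genes gave 224, 211 and 205 FPKM in NC and 192, 189.6 and 168 with TGF-β1. The groups did not overlap in this sum as deposited, and ID3 was left out with its values known. ID1 carried most of the sum. Its own gap narrowed to 178.05 against 177.1 FPKM after median-ratio scaling and to 179 against 178.2 after scaling to the same total. With ID3 included the TGF-β1 sums were 196, 193 and 346 against 208 to 228 in NC, so that 1 library turned the order of the group means. The ratio of ID1 to ID2 overlapped between the groups (12.4 to 15.1 in NC and 10.9 to 14.7 with TGF-β1).

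**Figure D4:**
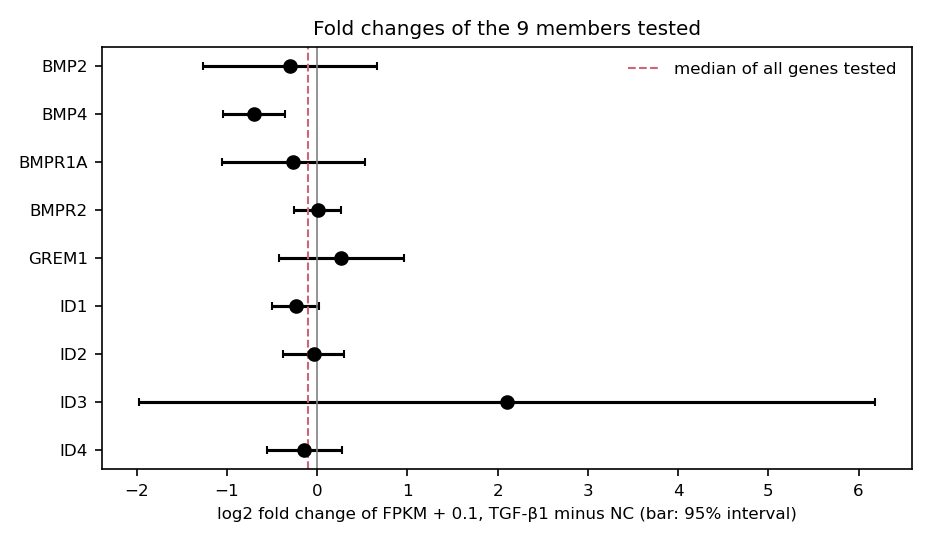
Log2 fold change, TGF-β1 minus NC, of the 9 members tested (points) with the 95% interval from limma (bars). The dashed line is the median of all genes tested, -0.10. The interval of BMP4 lies wholly below 0, that of ID1 ends at 0.02, and that of ID3 runs from -1.97 to 6.18.

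The rest of the pathway was read from a list of 59 genes, of which 44 were found by symbol, 36 could be tested and none passed (limma). At an unadjusted p under 0.05 there were 3 of the 36, GDF10, BMPR1B and ATOH8, against 9.98% of all genes. The groups did not overlap in 5 of the 36 (13.9%, against 18.1% of all genes), with 3 lower (14.3% of all genes) and 2 higher (3.83% of all genes). The median log2 fold change of the 36 was 0.03, and 16 were below 0 while 66.9% of all genes tested were.

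ATOH8, a helix-loop-helix transcription factor that BMP signals induce in human and mouse cells, had 6.58, 7.31 and 6.57 FPKM in NC and 4.11, 4.41 and 4.53 with TGF-β1. The groups were far apart relative to their spread (6.82 ± 0.423 and 4.35 ± 0.217, SD, n = 3 per group). Its log2 fold change was -0.64 (SE 0.10), and its limma adjusted p of 0.205 was the nearest to the threshold among the 36, and under the alternatives its adjusted p was 0.130 to 0.538. The other targets with higher levels, MSX1, a homeobox gene, and HEY1, which Notch also induces, had log2 fold changes of 0.16 and 0.32, with SE of 0.33 and 0.50.

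Of the other ligands, GDF10, also known as BMP3B, had 0.4999, 0.593 and 0.650 FPKM in NC and 0.206, 0.241 and 0.367 with TGF-β1. The groups did not overlap, and the log2 fold change was -0.89 (SE 0.19, limma adjusted p = 0.348). BMP8B ranged from 0 to 0.585 with no order by group, and BMP7 did not exceed 0.0411. Among the receptors, BMPR1B, the type I receptor related to BMPR1A, had 0.632, 0.938 and 1.07 FPKM in NC and 1.35, 1.71 and 1.12 with TGF-β1. It was higher in every treated library, and its log2 fold change was 0.62 (SE 0.24, limma adjusted p = 0.485), but its mean stayed far below that of BMPR1A, at 1.40 against 9.51 FPKM with TGF-β1. ACVR1 and ACVRL1, 2 further type I receptors, and NEO1, which pairs with the RGM coreceptors, had log2 fold changes of 0.02, -0.13 and -0.13 with overlapping groups.

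CHRDL1, a chordin-like antagonist of BMP4, was the most abundant antagonist, at 144 ± 32.5 FPKM in NC and 121 ± 8.09 under TGF-β1 (SD, n = 3 per group). Its level exceeded that of GREM1 by more than 10 times in each group mean, and its groups overlapped (log2 fold change -0.23, SE 0.19). CRIM1, a membrane protein that binds BMPs, had 36.9 ± 9.48 and 38.3 ± 6.38. TWSG1, which binds BMPs together with chordin, had 17.8 ± 0.916 and 16.6 ± 0.662 (SD, n = 3 per group), with groups that did not overlap as deposited but did after either scaling. NBL1, an antagonist of the same family as GREM1 (named after its values were seen), jumped between levels within groups, at 22.7, 29.4 and 0.545 in NC and 0.654, 4.15 and 31.3 with TGF-β1, and its interval of -5.78 to 4.37 on the log2 scale was the widest among the 36.

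As deposited, none of the BMP Smads had separate groups, though SMAD9 lay above the controls in every treated library after scaling to the same total. SMAD1, which has 2 rows of which the higher is given, differed by -0.23 on the log2 scale (SE 0.13), SMAD5 by 0.10 (SE 0.18) and SMAD9 by 0.0045 (SE 0.11). SMAD4, the shared partner, had 34.1 ± 1.57 FPKM in NC and 32.3 ± 1.57 under TGF-β1 (SD, n = 3 per group). SMAD6, an inhibitory Smad that BMP signals induce, had 24.4, 21.4 and 18.6 in NC and 19.8, 17.8 and 15.2 with TGF-β1. Its log2 fold change was -0.28 (SE 0.16, limma adjusted p = 0.594), close to that of ID1, but its groups overlapped. SMAD7, the other inhibitory Smad, had 9.24, 7.96 and 7.23 in NC and 8.72, 9.09 and 8.50 with TGF-β1. It went the other way from SMAD6, with a log2 fold change of 0.11 (SE 0.12), and its groups overlapped as deposited but were separate, with TGF-β1 above NC, after either scaling. SMURF1, a ubiquitin ligase for the BMP Smads, had 6.77, 8.01 and 7.52 in NC and 8.80, 8.53 and 8.53 with TGF-β1, higher in every treated library (log2 fold change 0.21, SE 0.10, limma adjusted p = 0.542). SMURF2 overlapped between the groups, at 25.6 ± 5.30 and 26.8 ± 2.80 (SD, n = 3 per group). The E proteins that ID proteins hold, TCF3 and TCF4, had log2 fold changes of -0.10 and 0.12, with SE of 0.10 and 0.20.

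**Figure D5:**
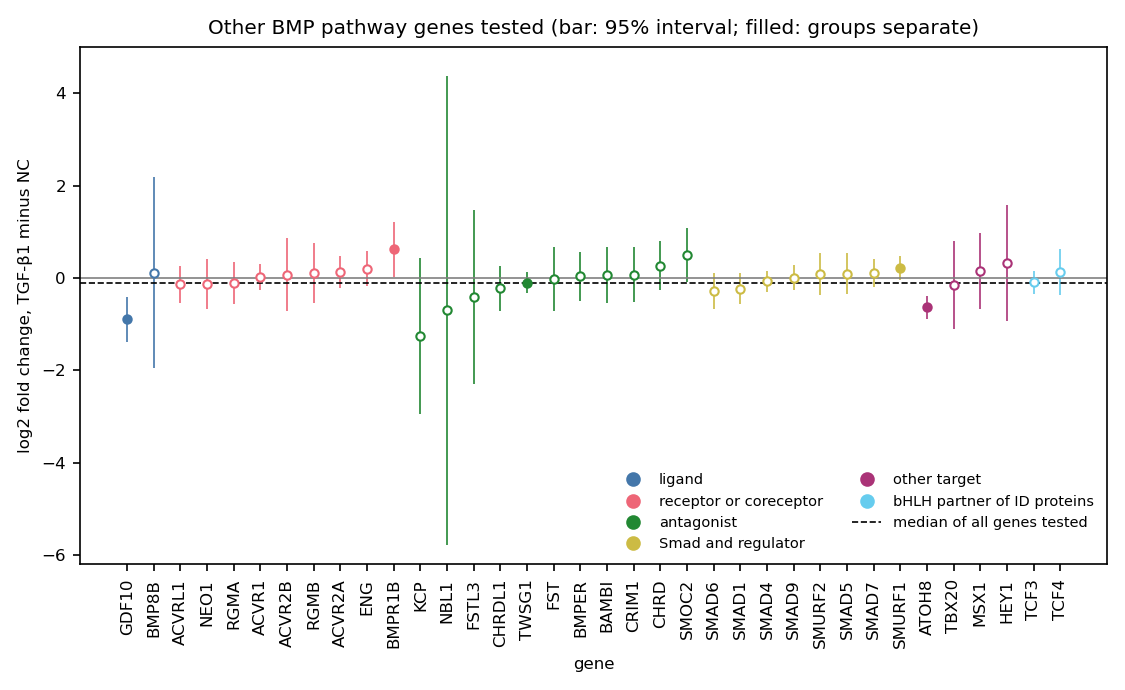
Log2 fold change, TGF-β1 minus NC, of the 36 other BMP pathway genes tested, coloured by role, with 95% intervals from limma and filled points where the groups do not overlap. The 5 filled points are GDF10, TWSG1 and ATOH8, which lie below 0, and BMPR1B and SMURF1, which lie above it.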

How the data were processed

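RNA was sequenced by the authors after removal of ribosomal RNA, in 3 NC and 3 TGF-β1 samples grouped by their titles. Reads were cleaned and aligned to Sscrofa10.2 (aligner not given in the sources used here), and the deposited FPKM values were calculated by the authors with StringTie 1.3.1, 1 value per gene and sample. The authors describe the samples of a group as biological replicates. The lncRNA tables were not used here.

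These values were analysed as log2(FPKM + 0.1) by limma 3.58.1 under R 4.3.3, with default lmFit and eBayes settings, over all genes that exceeded an FPKM of 0.1 in 3 or more of 6 samples, with Benjamini-Hochberg adjustment and a threshold of 0.1. The fit was tested on simulated data. Plots used matplotlib 3.10.9 (Python 3.11.15). The number of samples limits the precision. The paper gives raw read totals for each group but not for each sample. Without counts, only the relative depth of a sample could be estimated, from the most frequent ratio of FPKM values under 0.5 between samples.

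The members and lists were chosen with earlier results of these data known. Named besides the members were the 3 genes of highest mean in each role of the pathway list, any that passed, and the 3 genes most like the most variable member. BMPR1B, SMURF1, NBL1, SMAD1, SMAD5, SMAD7 and SMAD9 were named after their values were seen. Symbols of the list that were not found were not analysed here: 15 of 59. Alternatives were other pseudocounts (1 and 0.01), other filters (none, or a minimum mean FPKM of 1), other scalings (to the same total, by median ratio, by quantiles), a trended and robust fit, the replicate number as a block, an adjusted p of 0.05 and leaving out each sample.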

Additional observations from a re-analysis of the deposited data

How the results depend on the processing

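None of the 9 members tested and none of the 36 other pathway genes passed under any of these alternatives. The number of all genes that passed, 17, was 49 with a pseudocount of 0.01, 11 with no filter, 5 with a mean FPKM of at least 1, 31 with quantile normalization, 46 with a trended and robust fit and 9 at an adjusted p of 0.05. It was 15 to 41 when 1 sample was left out, with 41, 36 and 30 without TGF-β1 replicate 1, 2 and 3. With the replicate number as a block it was 3, and no member changed its call. Samples of the same number had correlations of their deviations of 0.25, 0.0039 and 0.20. Those of replicates 1 and 3 were the highest of all pairs between the groups. The lowest were NC replicate 1 with TGF-β1 replicate 3 (-0.24) and NC replicate 3 with TGF-β1 replicate 1 (-0.21). Both samples numbered 2 correlated better with a sample of another number. Whether the samples were paired cannot be told from these values, and the main fit took no pairing.

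Log2 fold changes of BMP4 (-0.78 to -0.41), BMPR1A (-0.53 to -0.038), GREM1 (0.052 to 0.48), ID1 (-0.29 to -0.11) and ID3 (0.22 to 3.14) kept their sign. The small ones of other members did not: ID2 was 0.050, 0.059 and 0.088 with quantile normalization, median-ratio scaling and scaling to the same total and -0.13 to 0.051 with 1 sample left out (0.014 and 0.051 without NC replicate 3 and TGF-β1 replicate 1). With 1 sample left out, BMP2 ran from -0.61 to 0.11, BMPR2 from -0.053 to 0.034 (-0.053 and -0.052 without NC replicate 3 and TGF-β1 replicate 1) and ID4 from -0.25 to 0.012. The causes were not tested. BMP2 and BMP6 are limited by their low levels, and ID3 by 1 library.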
